A study of Sparus aurata with 9 samples.

Results

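White skeletal muscle of juvenile gilthead seabream (Sparus aurata) had counts on 7 gene models of the FoxO factors and the muscle atrophy ubiquitin ligases, out of 11 such gene models among the 61849 in the tables. Members were picked by their description, as forkhead box O followed by any number, F-box only 32 or TRIM63. This rule was set with earlier results of these data known. They comprised 3 gene models of forkhead box O1, 2 of forkhead box O3, 3 of forkhead box O6, 2 of F-box only 32 and 1 TRIM63-like. Gene models here are those of the count tables, with their identifiers and descriptions, and no coordinates were used for them.

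The study asked what long-term swimming against a water flow does to the growth and the muscle of this farmed fish. RNAseq was performed on white muscle of 9 fish, 3 kept for 8 months at minimal flow (the controls), 3 swimming for 8 months at 1 body length (BL) s-1 and 3 swimming for 8 months at 2 BL s-1. All fish came from a commercial farm, and their age and sex are not given in the labels. Each fish was 1 library. Because a group came from 1 tank, group and tank cannot be told apart, and p-values measure the spread between these fish only.

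FoxO proteins are transcription factors that insulin and IGF signalling hold in check. Akt kinase phosphorylates them, 14-3-3 proteins bind the phosphorylated form, and FoxO is kept out of the nucleus. In mammalian muscle deprived of insulin, food or activity, or exposed to glucocorticoids, FoxO enters the nucleus and raises transcripts for autophagy and for the ubiquitin ligases atrogin-1 (F-box only 32) and MuRF1 (TRIM63), which mark muscle proteins for the proteasome. Most of this control acts on the FoxO proteins themselves, which RNAseq does not measure.

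Total counts per fish ranged between 3660245 and 5267310, and the members together took between 39.4 and 221 CPM (the count scaled to the library total), the highest share in control fish 2. Of 4241 gene models kept by the low-count filter over the 9 fish, control fish 2 was the highest fish in 652 (15.4%). Fish 3 at 1 BL s-1 was the highest in 879 (20.7%), and each remaining fish in between 6.89% and 11.5%. Control fish 2 stood apart on the second principal component (35.8, 16.8% of the variance), where the other 8 fish lay between -16.7 and 6.29. Fish 3 at 1 BL s-1 stood apart on the first (53.6, 30.8% of the variance). The summed level of the 58 detected gene models of fast muscle markers lay between 819198 and 1306710 normalized counts, which is the tissue of the label. Of the 34 tested at 2 BL s-1, 0 rose and 10 fell at an unadjusted p of 0.05, where 2.71% of all gene models were lower. Their median log2 fold change was -0.30 against 0.00 over all gene models. Without control fish 2, 1 of 36 rose and 15 fell, with a median of -0.41, where 2.54% of all gene models were lower. At 1 BL s-1 1 of 34 rose and 2 fell, with a median of -0.12, where 4.02% of all gene models were called. Slow muscle markers summed to 982 normalized counts in fish 2 at 2 BL s-1 and to between 6.61 and 85.3 in the other fish, and type I and III collagen, decorin and lumican to 18729 in fish 3 at 2 BL s-1 and 12452 in fish 3 at 1 BL s-1, against between 4695 and 7931 in the other 7. Collagens belong to connective tissue cells. Hemoglobins of red blood cells summed to 938 in fish 3 at 1 BL s-1 and to between 117 and 358 elsewhere. The hemoglobin gene model with nearly all of these counts, hemoglobin subunit alpha-A (Sa_36429.7.1, named after its values were seen), had 292, 252 and 935 normalized counts in fish 1, 2 and 3 at 1 BL s-1, against 162, 122 and 226 in controls 1, 2 and 3. It was called higher at 1 BL s-1 at an unadjusted p of 0.05 (log2 fold change 1.52), also with each of the 6 fish left out in turn, and its log2 fold change was 0.67 without fish 3. The adipocyte list held only adiponectin receptors, so it could not show adipocytes. Here a normalized count is the raw count corrected for library size and TMM factor over the 9 fish. Gene lengths were not given, so levels are compared between fish and not between genes.

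The forkhead box O3 gene model Sa_6033.1.1 was the member with the most counts. It had 164, 645 and 141 normalized counts in controls 1, 2 and 3, 137, 88.4 and 59.4 in fish 1, 2 and 3 at 1 BL s-1, and 148, 101 and 79.9 at 2 BL s-1. Control fish 2 was far above all others, and the remaining 8 fish lay within 59.4 and 164. FoxO3 is in mammals the FoxO most often linked to atrophy.

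**Figure D1:**
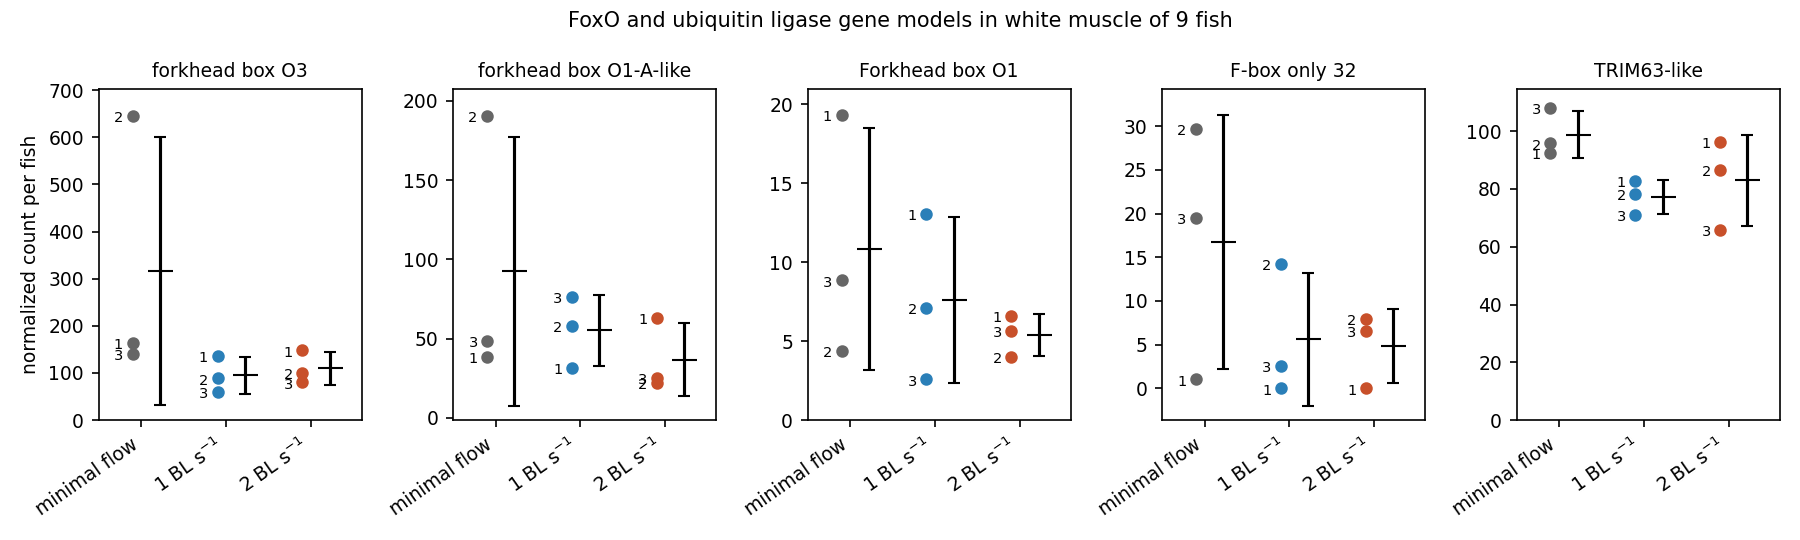
Normalized counts of 5 members in each of the 9 fish (y axis, 1 panel per gene model, each with its own scale) by group (x axis). Points are fish with their number, and the bar and whiskers are the mean and SD of 3 fish. Forkhead box O3 and forkhead box O1-A-like are each highest in control fish 2, at 645 and 190 normalized counts.

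At 1 BL s-1 forkhead box O3 averaged 94.8 ± 39.0 normalized counts, and 316 ± 285 in the controls (SD, n = 3 fish each), and every swimming fish lay below every control. It fell by 1.73 on the log2 scale (standard error 0.59, 95% interval -3.05 to -0.41), which is 0.301 of the control level. It passed an unadjusted p of 0.05, the threshold of the study, in edgeR's quasi-likelihood test, and its Benjamini-Hochberg adjusted p = 0.966 over 3902 gene models did not pass. An exact permutation test gave p = 0.1, the smallest that 3 fish against 3 allow. Without control fish 2 the log2 fold change was -0.68 (95% interval -1.51 to 0.14) and the call was lost, and without fish 3 at 1 BL s-1 it was -1.49 and the call held. The adjusted verdict depended on the low-count filter. With no filter the adjusted p of forkhead box O3 by edgeR was 2.02e-05 at 1 BL s-1 and 1.12e-05 at 2 BL s-1. The standard errors were then 0.308 and 0.277, against 0.586 and 0.545 with the filter, on the same fish. The log2 fold changes at 1 BL s-1 were nearly the same, at -1.73 with the filter and -1.74 without. The smaller standard errors therefore restate the smaller p and are no separate evidence on the spread between fish. What lowered them was not tested. The adjusted p was 0.884 and 0.874 with no filter and without control fish 2. Hemoglobin alpha-A rose in the same comparison at 1 BL s-1, and its part in the fall of forkhead box O3 was not tested. In bulk muscle, fewer cells of a type and less RNA per cell cannot be told apart.

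Forkhead box O3 was the only call among the 4 members tested at 1 BL s-1, at an unadjusted p of 0.05. Over all gene models 157 of 3902 were called (4.02%), 80 of them lower (2.05%), and 0 passed the adjusted threshold with edgeR and 0 with DESeq2, where 47 passed with edgeR and no filter. Of the gene models tested, 11% had groups that do not overlap and 4.92% were lower without overlap, and forkhead box O3 and TRIM63-like were the members among them. The 4 members tested are too few to set 1 call against these shares. Leaving out control fish 2, 0 of 5 members were called, where 3.59% of 4235 gene models were.

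The faster swimmers averaged 110 ± 35.03 normalized counts of forkhead box O3, and the controls 316 ± 285 (SD, n = 3 fish each), and fish 1 at 2 BL s-1 lay above control fish 3. It fell by 1.52 on the log2 scale (standard error 0.55, 95% interval -2.74 to -0.30, Benjamini-Hochberg adjusted p = 0.996 by edgeR's quasi-likelihood test, exact permutation p = 0.2). At the unadjusted threshold it was the 1 member called of 3 tested, where 176 of 3947 gene models were called (4.46%), 107 of them lower (2.71%). The call was lost without control fish 2 (log2 fold change -0.47, 95% interval -1.14 to 0.20), without fish 2 at 2 BL s-1 (-1.47) and without fish 3 at 2 BL s-1 (-1.34). Leaving out control fish 2, 0 of 4 members were called, where 4.45% of 4337 gene models were. Both comparisons share the 3 controls, so the 2 falls are not separate evidence. Between the speeds the log2 fold change was 0.21 (95% interval -0.59 to 1.02), and 0 of 3 members tested were called, where 168 of 3963 gene models were (4.24%).

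The forkhead box O1-A-like gene model Sa_7802.4.1 had 38.6, 190 and 48.7 normalized counts in controls 1, 2 and 3, 31.3, 57.9 and 76.2 at 1 BL s-1, and 63.2, 21.9 and 25.4 at 2 BL s-1. FoxO1 acts beside FoxO3 on the same genes in mammalian muscle. Control fish 2 was again the highest, at 4.36 times the median of the other 8 fish. The log2 fold change was -0.76 at 1 BL s-1 (standard error 0.60) and -1.31 at 2 BL s-1 (standard error 0.63, 95% interval -2.71 to 0.09), and neither passed with edgeR. At 2 BL s-1 it was called at the unadjusted threshold with DESeq2, and with edgeR without fish 1 at 2 BL s-1 (-1.96), without control fish 1 (-1.69) and without control fish 3 (-1.63). With no filter it was also called by edgeR (Benjamini-Hochberg adjusted p = 0.00875), at a smaller standard error of 0.32. At 1 BL s-1 it was called with no filter (adjusted p = 0.777 by edgeR). Without control fish 2 the values were 0.30 at 1 BL s-1 and -0.25 at 2 BL s-1, so the direction at 1 BL s-1 turned. Between the speeds it was -0.55 (95% interval -1.60 to 0.50), and without fish 1 at 2 BL s-1 it was -1.20 and passed the unadjusted threshold.

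The other FoxO members had few counts and no test in the main comparison. Forkhead box O1 Sa_24145.1.1 had 19, 4 and 10 raw counts in controls 1, 2 and 3, 15, 7 and 2 at 1 BL s-1, and 7, 4 and 6 at 2 BL s-1. Its highest fish was control fish 1, not control fish 2. Its summed counts gave a ratio of 0.756 at 1 BL s-1 (counting interval 0.428 to 1.32) and of 0.498 at 2 BL s-1 (0.260 to 0.920) to the controls, and these intervals cover counting error only, not the spread between fish. Forkhead box O6-like Sa_41564.1.1 had 3 counts in all controls, 4 at 1 BL s-1 and 10 at 2 BL s-1, 9 of these in fish 3. Forkhead box O1 Sa_24145.4.1 had 1 count, in fish 3 at 1 BL s-1.

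No count fell on forkhead box O3-like Sa_33401.2.1, on forkhead box O6-like Sa_23763.8.1 and Sa_23763.8.2, or on F-box only 32 Sa_22677.2.1. With 39747691 counts over the 9 fish, 0 counts allow a mean level over these fish of up to 0.0755 CPM for each. A single fish could lie higher. The limit holds for counted reads only, and counts of overlapping or near-identical gene models are uncertain.

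The ubiquitin ligases were the TRIM63-like and F-box only 32 gene models. TRIM63-like Sa_27755.1.1 had 92.5, 95.7 and 108 normalized counts in controls 1, 2 and 3, 82.7, 78.3 and 71.0 at 1 BL s-1, and 96.3, 86.7 and 65.8 at 2 BL s-1. It was even among fish, with a coefficient of variation of 15.5%, and 7.73% of 4241 gene models varied less. All fish at 1 BL s-1 lay below all controls (exact permutation p = 0.1), and the log2 fold change was -0.36 (standard error 0.23, 95% interval -0.88 to 0.16). Fish at 2 BL s-1 overlapped the controls and the log2 fold change was -0.25 (95% interval -0.77 to 0.27), and between the speeds it was 0.11 (95% interval -0.45 to 0.67).

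F-box only 32 Sa_22677.2.2, the atrogin-1 gene model with counts, had 1, 27 and 22 raw counts in controls 1, 2 and 3, 0, 14 and 2 at 1 BL s-1, and 0, 8 and 7 at 2 BL s-1. The groups overlapped, because control fish 1 had 1 count. At 1 BL s-1 the log2 fold change was -1.56 (standard error 1.13) and did not pass. Leaving out each fish it ran between -3.82 without fish 2 at 1 BL s-1, where it passed the unadjusted threshold and the 2 remaining fish of that group had 0 and 2 counts, and -0.90 without control fish 2. Without fish 1 at 1 BL s-1 it was -0.93 and did not pass. It passed the unadjusted threshold with the replicate block (-1.76, standard error 0.68) and with no filter (-1.57, standard error 0.61). Their Benjamini-Hochberg adjusted p-values by edgeR, 0.921 and 0.735, did not pass. With no filter and without control fish 2 it was -0.89 and did not pass. In the other comparison with the controls, that of 2 BL s-1, it was below the low-count filter, with 15 counts against 50 in the controls, a ratio of 0.290 (counting interval 0.151 to 0.525, counting error only). There it passed the unadjusted threshold with no filter (-1.78) and without control fish 1 (-2.32). Without control fish 2 it was -1.11, both with the filter and with none, and did not pass.

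**Figure D2:**
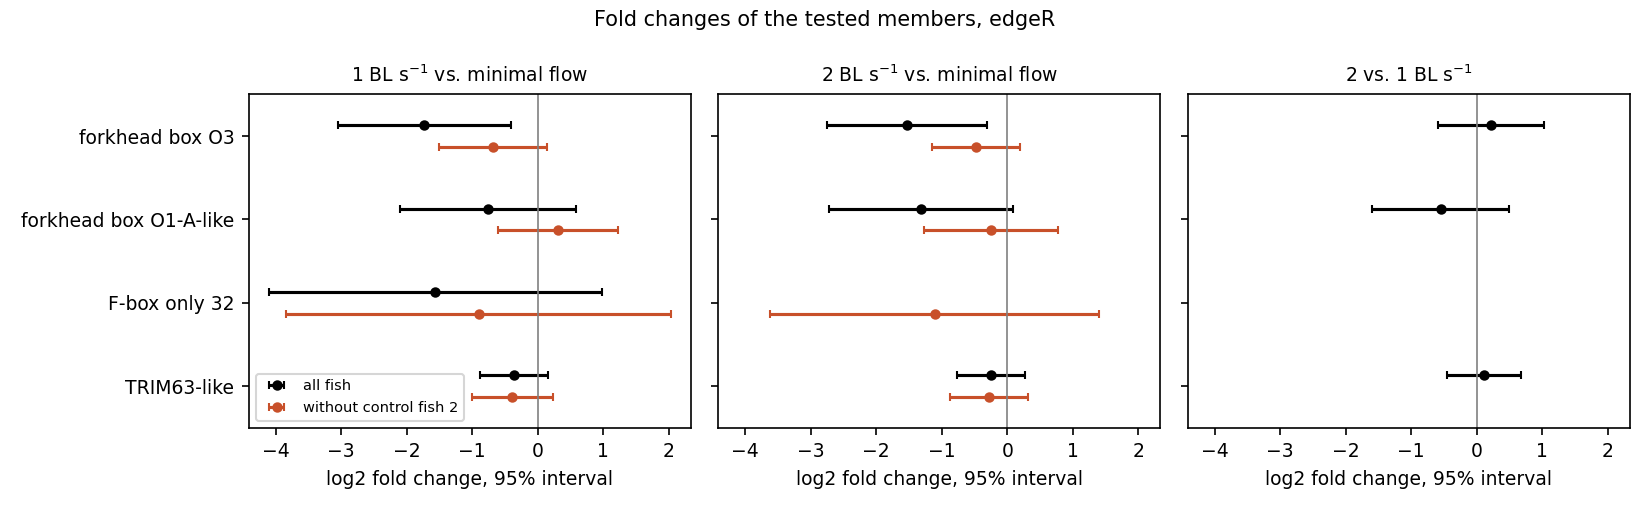
Log2 fold changes (x axis) with 95% intervals of the 4 members that were tested (y axis), by edgeR, with all fish (black) and without control fish 2 (orange), for 1 BL s-1 vs. controls, 2 BL s-1 vs. controls and 2 vs. 1 BL s-1. F-box only 32 has no value where it was below the low-count filter. Forkhead box O3 lies at -1.73 and -1.52 with all fish and at -0.68 and -0.47 without control fish 2.

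The level of forkhead box O3 in control fish 2 was 3.94 times that of the next fish. Of 4241 gene models 31 had a ratio of the highest to the second highest fish of at least that, and the median ratio was 1.14. In 9 of the 31 the highest fish was control fish 2, where 15.4% of all kept gene models were highest. Forkhead box O3, whose own ratio set this cutoff, is among the 9. Besides forkhead box O3 these were kelch 38, F-box only 30-like, Krueppel-like factor 13, arrestin domain-containing 2, nuclear factor erythroid 2-related factor 1-like, mucosa-associated lymphoid tissue lymphoma translocation 1-like, Solute carrier family 35 member E4 and serine threonine- kinase 35-like, all named after their values were seen. The coefficient of variation of forkhead box O3 was 104% over the 9 fish and 32.7% without control fish 2, and the median over all gene models was 32.1% over the 9 fish.

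**Figure D3:**
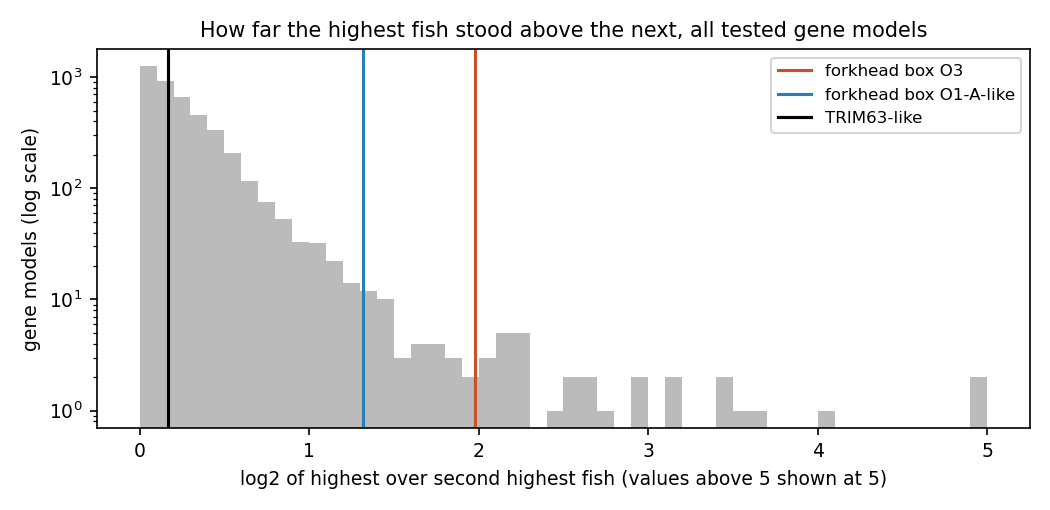
Number of gene models (y axis, log scale) by the log2 ratio of the highest to the second highest of the 9 fish (x axis), for the 4241 gene models kept by the low-count filter. Vertical lines mark forkhead box O3 (ratio 3.94), forkhead box O1-A-like (ratio 2.497) and TRIM63-like (ratio 1.12).

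Some other genes of muscle protein breakdown had the same highest fish, and some did not. Of the 8 kept gene models in the list of other ubiquitin ligases of muscle breakdown, 2 were highest in control fish 2 and 2 were lowest there. Over all kept gene models 15.4% were highest and 14.2% lowest in that fish. The 2 highest were F-box only 30-like (Sa_31287.2.1) and NEDD4-binding 2 (Sa_4281.5.1), which is not a ligase by name. NEDD4-binding 2 had 17.6 normalized counts in control fish 2 and at most 15.2 in the others. The 2 lowest were a second F-box only 30-like (Sa_11824.2.1), at 6.60 normalized counts in control fish 2 and between 9.15 and 23.9 in the others, and CBL-B (Sa_2345.1.1), a ligase of growth factor receptor signalling, at 7.70 and between 9.97 and 20.9, both named after their values were seen. Muscle RING finger 1 (Sa_36880.1.1), whose description is another name of MuRF1 and so falls outside the rule, had 2809 normalized counts in control fish 2 and between 297 and 1048 in the other 8. It was chosen after its values were seen. F-box only 30-like (Sa_31287.2.1), a ligase of the atrophy programme in mice, had 404 in control fish 2 and between 19.8 and 93.0 in the others. Kelch 38 (Sa_22677.1.1) had 1398 in control fish 2 and between 17.4 and 285 in the others. In the RefSeq annotation of the fSpaAur1.1 assembly fbxo32 lies between prelid3a and klhl38b, the kelch 38 gene, and the tables' F-box only 32 and kelch 38 identifiers share a stem. The tables' identifiers were not matched to RefSeq.

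These 3 genes were called lower at 2 BL s-1 with all fish, and they lost their calls without control fish 2 and without at least 2 single fish at 2 BL s-1. Muscle RING finger 1 (Sa_36880.1.1) had a log2 fold change of -1.54 at 2 BL s-1 and of 0.0083 without control fish 2. F-box only 30-like (Sa_31287.2.1) had -1.93 and -0.19 without it, and kelch 38 (Sa_22677.1.1) -2.37 and -0.27. None of the 3 passed at 1 BL s-1. TRIM63-like was not high in control fish 2, at 1.13 times the median of the other 8 fish.

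**Figure D4:**
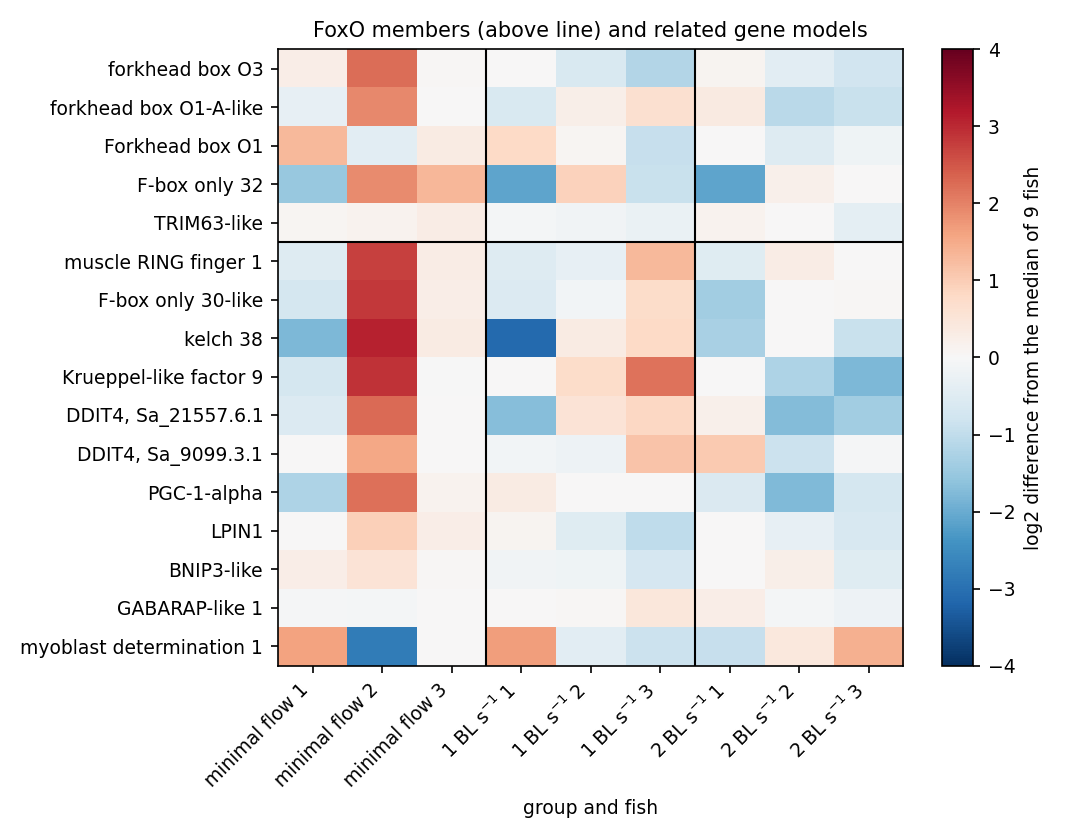
Level of 16 gene models (rows) in the 9 fish (columns, by group), as the log2 difference from the median of the 9 fish, with red for above and blue for below. The 5 members stand above the black line. Most of the reddest cells are in control fish 2, where kelch 38 reached 1398 and muscle RING finger 1 reached 2809 normalized counts. These genes were chosen after their values were seen. The rows are a selection, so the share of red cells in this fish does not describe all genes.

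Calls among related genes are given at the unadjusted threshold, and their adjusted p-values were no smaller than 0.966 at 1 BL s-1 and 0.996 at 2 BL s-1 by edgeR with Benjamini-Hochberg adjustment. Over all gene models 4.02% were called at 1 BL s-1 (2.05% lower) and 4.46% at 2 BL s-1 (2.71% lower). Single calls in short lists cannot be set against these shares. The pathway that holds FoxO in check was described by a list of insulin and IGF receptors, PI3K, Akt, Sgk and mTOR components. Of 16 tested at 1 BL s-1, 0 rose and 1 fell, and the median log2 fold change was -0.30, where the median over all 3902 gene models was -0.01. The 1 that fell was hamartin-like Sa_31945.3.1, a subunit of the complex that holds mTOR back (log2 fold change -0.88). Of 15 tested at 2 BL s-1, 0 passed, with a median of -0.30. The member with the most counts was ribosomal S6 kinase beta-1-like, a kinase downstream of mTOR. Of 11 tested gene models that bind or modify FoxO, among them 14-3-3 gamma-1 with the most counts, 0 passed at either speed, with medians of -0.09 at 1 BL s-1 and 0.11 at 2 BL s-1.

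Among other ubiquitin ligases of muscle breakdown, 0 of 8 passed at 1 BL s-1 and 1 of 7 fell at 2 BL s-1, the F-box only 30-like gene model above. This list also holds gene models named as binding or interacting with NEDD4, which are not ligases by name. Of the list, NEDD4 family-interacting 1-like had the most counts. In the autophagy list 1 of 14 fell at 1 BL s-1, BCL2 adenovirus E1B 19 kDa -interacting 3-like Sa_11893.1.1. Its description names a gene like BNIP3, a receptor for the removal of mitochondria, and does not settle which relative it is. Its log2 fold change was -0.62, and -0.49 without control fish 2, where the call was lost. Of 15 tested at 2 BL s-1, 0 passed. Between the speeds 1 of 14 rose, Beclin 1-associated autophagy-related key regulator (Sa_18868.3.2). Gamma-aminobutyric acid receptor-associated -like 1, which coats autophagosomes, had the most counts and a log2 fold change of 0.22 at 1 BL s-1 and 0.06 at 2 BL s-1. The list's expression for microtubule light chain 3 also caught a myosin light chain.

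Of 14 other genes known as FoxO targets in mammals, 1 fell at 1 BL s-1, sestrin-3-like (Sa_23763.9.1, log2 fold change -0.62), a stress protein that restrains mTOR. It also had the most counts of its list. The list's expression for BCL-6 also caught a BCL-6 corepressor (Sa_8033.5.1), which is a different gene. This corepressor was highest in control fish 2, at 64.9 normalized counts against at most 49.6 in the other fish. It therefore enters the count of gene models highest in that fish given below for this list. Of 14 at 2 BL s-1, 1 rose and 3 fell, where 4.46% of all gene models were called and 2.71% were lower. The median was -0.32 against 0.00 over all gene models and -0.30 over the fast muscle markers. Polyubiquitin-B (Sa_3888.6.1) rose (log2 fold change 0.83), and it encodes ubiquitin itself. The coactivator PGC-1-alpha (Sa_30678.1.1) fell (-2.03), as did GADD45 gamma (Sa_11765.1.1, -1.14) and cyclin-dependent kinase inhibitor 1B-like (Sa_39207.3.1, -0.93). Without control fish 2, 0 of 15 passed at either speed, where 3.59% of all gene models passed at 1 BL s-1 and 4.45% at 2 BL s-1. Between the speeds, a comparison without the controls, 2 of 14 rose and 1 fell at the unadjusted threshold, where 4.24% of all gene models were called. Sestrin-3-like and polyubiquitin-B were higher at 2 BL s-1 and PGC-1-alpha was lower. At the adjusted threshold 0 of all gene models passed there by edgeR.

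The glucocorticoid list holds genes that the hormone receptor induces in mammalian muscle. All 5 of its kept gene models were highest in control fish 2. For the reasons below, this count cannot be set against the 15.4% of all kept gene models. The same count was 5 of 17 in the insulin and mTOR list, 5 of 16 in autophagy, 5 of 15 in other FoxO targets, 1 of 8 in myostatin and Smads, 1 of 6 in other forkhead genes and 0 of 12 in the genes that bind or modify FoxO. Krueppel-like factor 15, 1 of the 5, is also in the list of other FoxO targets. It had 20 raw counts in control fish 2 and 18 in fish 1 at 2 BL s-1. FKBP5-like had 21 in control fish 2 and at most 11 in any other fish. It passed the low-count filter only through control fish 2, so its place among the 5 was fixed by the filter. The glucocorticoid list had 15 gene models with a count, and those below the filter are not in this comparison. DNA damage-inducible transcript 4 enters the 5 with both its gene models. Krueppel-like factor 9 had 630 normalized counts in control fish 2 and 384 in fish 3 at 1 BL s-1. At 1 BL s-1 0 of 4 passed. At 2 BL s-1 3 were tested, too few to set against the 2.71% of all gene models that were lower. Of these 3, 2 fell, Krueppel-like factor 9 (Sa_50120.1.1, log2 fold change -2.42) and DNA damage-inducible transcript 4 (Sa_21557.6.1, -1.85). Without control fish 2 they were -0.50 and -0.48 and neither passed, and at 1 BL s-1 Krueppel-like factor 9 then rose (1.58). Between the speeds 1 of 4 fell, Krueppel-like factor 9. In the list of myostatin, activin receptors and Smads 1 of 7 fell at 1 BL s-1, myostatin itself (Sa_10066.5.1, -0.95), and 0 of 8 passed at 2 BL s-1. Between the speeds 1 of 8 rose, again myostatin. Of the other forkhead genes 1 of 6 fell at 1 BL s-1, forkhead box K1 (Sa_12163.5.1, -0.85), which in mammals opposes autophagy, and 0 of 6 passed at 2 BL s-1, while forkhead box J2-like had the most counts. Between the speeds 0 were called in the lists of other ligases, insulin and mTOR, genes that bind or modify FoxO and other forkhead genes. Of the calls against the controls in these lists, that of myostatin held with each of its 6 fish left out in turn. Each of the others was lost without at least 2 different single fish, control fish 2 among them except for hamartin-like, which was lost without fish 2 or 3 at 1 BL s-1 or control fish 1 or 3. Cyclin-dependent kinase inhibitor 1B-like was lost without any 1 of the 6.

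Over the 9 fish the 3 members with a mean of at least 10 counts gave 3 pairs, on log2 normalized counts with a prior count of 2. Forkhead box O3 and TRIM63-like had a Pearson r of 0.619 (exact permutation p = 0.0687, adjusted over the 3 pairs 0.128) and a Spearman rho of 0.817 (exact permutation p = 0.0108, adjusted 0.0323). Without the 2 fish farthest from the median of TRIM63-like, r was 0.755. Without control fish 2 it was 0.817 (exact permutation p = 0.0142, adjusted 0.0427), and with each group's mean removed it was 0.269 (exact permutation p = 0.479). The relation of the levels therefore did not pass once the groups' means were removed. The adjusted p of rho ran between 0.0217 and 0.138 by the exact permutation test leaving out each fish, and over the 10 pairs of members with a mean of at least 3 counts it was 0.108.

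Forkhead box O3 and forkhead box O1-A-like had r = 0.634 (exact permutation p = 0.0852, adjusted 0.128) and rho = 0.267 (exact permutation p = 0.493, adjusted 0.493). Without control fish 2 r was -0.14, so that the relation rests on this fish. TRIM63-like and forkhead box O1-A-like had r = 0.291 (exact permutation p = 0.452, adjusted 0.452) and rho = 0.267 (exact permutation p = 0.493, adjusted 0.493).

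**Figure D5:**
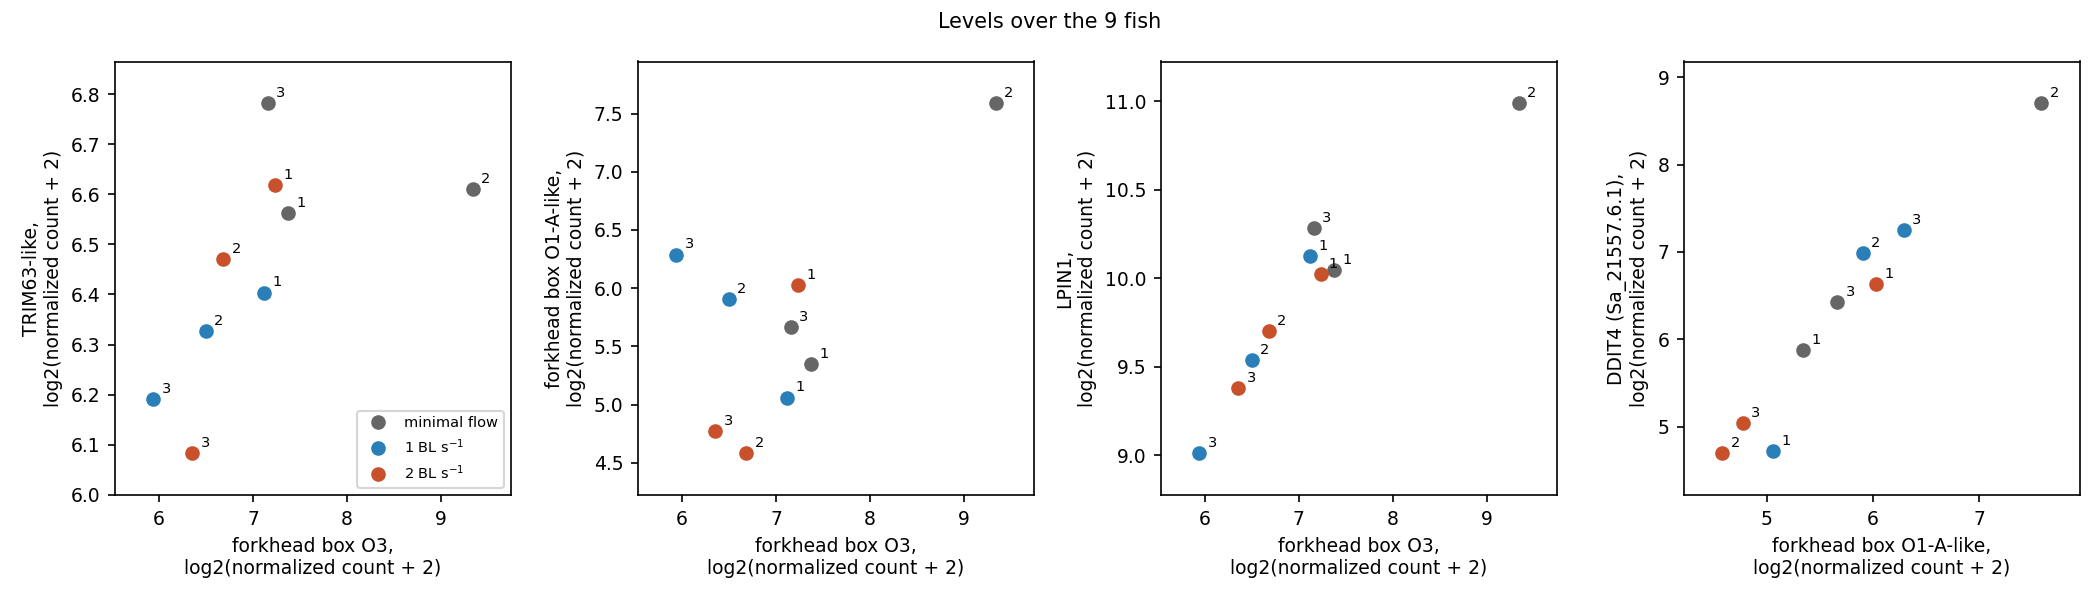
Log2 normalized counts of pairs of gene models over the 9 fish, with each point a fish, labelled by its number and coloured by group. Forkhead box O3 (x axis) is set against TRIM63-like, forkhead box O1-A-like and LPIN1 (y axes), and forkhead box O1-A-like (x axis) against DNA damage-inducible transcript 4 Sa_21557.6.1 (DDIT4, y axis). Control fish 2, with 645 normalized counts of forkhead box O3, lies at the upper right in all panels but that of TRIM63-like.

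The gene models whose pattern was most like each member's were ranked by Pearson r over the 9 fish among 1526 gene models with a mean of at least 50 counts, as a description in which all points share their libraries. For forkhead box O3 they were phosphatidate phosphatase LPIN1 (r = 0.95, and 0.96 without control fish 2), Solute carrier family 22 member 16 (0.89, and 0.49) and lysine-specific demethylase 6B (0.88, and 0.81). LPIN1 had 2026 normalized counts in control fish 2 and between 514 and 1245 in the other fish. For forkhead box O1-A-like they were DNA damage-inducible transcript 4 Sa_21557.6.1 (0.97, and 0.96 without control fish 2), aminopeptidase N-like (0.95, and 0.87) and mid1-interacting 1 (0.94, and 0.86). For TRIM63-like they were GTP-binding 2 (0.90, and 0.90), telomerase-binding EST1A (0.87, and 0.90) and myomesin-2-like (0.84, and 0.84), a protein of the sarcomere's M-band.

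What set control fish 2 apart was not tested. This fish had summed hemoglobin of 122, slow muscle markers of 7.70, collagen, decorin and lumican of 7931 and leukocyte markers of 63.8 normalized counts, against ranges of 117 to 938, 6.61 to 982, 4695 to 18729 and 29.3 to 68.5 in the other 8 fish. All 4 of its sums lay within these ranges, but the tops of 938, 982 and 18729 each belonged to a fish that stood apart. The hemoglobin and slow muscle sums of control fish 2 lay near the low ends. Its collagen, decorin and lumican sum was above those of the other controls, at 5189 and 5857. Whether tissue composition set this fish apart was not tested.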

How the data were processed

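White muscle RNA of 9 fish was sequenced from stranded mRNA libraries. Reads were aligned by the authors to a gilthead seabream reference genome at NCBI (TopHat2 2.0.13), and their processing notes list SAMtools 1.2, HTSeq 0.6.1p1 and DESeq as well. Which assembly name it carried and how counting treated strand was not given in the sources used here, and overlapping or near-identical gene models are uncertain. The authors deposited 3 tables, 1 per pair of groups, with raw counts per gene model and fish, which were used here. Of the counts of a fish, 0 differed between its tables, and 2 columns that no sample label names were left out. The deposited normalized signal means, fold changes (ratios) and p-values hold the authors' own comparisons and were not used.

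Counts were tested with edgeR 4.0.16 (quasi-likelihood, TMM, filterByExpr) on the 6 fish of each comparison in R 4.3.3, with Benjamini-Hochberg adjustment over all gene models kept. Both an unadjusted p of 0.05, as in the study, and an adjusted p of 0.05 served as thresholds. Standard errors with edgeR were back-calculated from the log2 fold change and the F statistic of its test. Intervals are at 95% and use these standard errors with a t quantile, so they carry the same information as the p-value. DESeq2 1.42.0, DESeq2 size factors, no filter, 1 fit over 9 fish, the sample number as a block and leaving out each fish in turn were alternatives. Fits without control fish 2 and fish 3 at 1 BL s-1 together, DESeq2 without control fish 2, no filter without control fish 2 and pairs of members with a mean of at least 3 counts were added after seeing the data. The fit was tested on simulated data with 200 changed gene models. Other steps ran in Python 3.11.15 (scipy 1.17.1, pandas 2.3.3, numpy 2.4.6, matplotlib 3.10.9). All pairs of fish differed by more than sampling noise, with a chi-square per degree of freedom of at least 11.5. Named genes were all members, from each pathway list the gene model with the most counts and every one called against the controls, and the 3 most alike per member with a mean of at least 50 counts. The members and lists were chosen with earlier results of these data known. One gene of the insulin and mTOR list is not reported here and was left out of its counts.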

Additional observations from a re-analysis of the deposited data

How the results depend on the processing

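The counts of calls depended on the low-count filter and on single fish. At 1 BL s-1 vs. controls the 157 gene models called became 527 with no filter, 429 with no filter and without control fish 2 and 101 with DESeq2 without control fish 2. The 1 member called became 3 with no filter, 2 with the replicate block, 0 without control fish 2 and fish 3 at 1 BL s-1 and 0 with DESeq2 or with no filter without control fish 2, and between 0 and 2 leaving out each fish. At 2 BL s-1 vs. controls the 176 called became 565 with no filter and 525 with no filter and without control fish 2. Leaving out each fish they ran between 117 and 273. The 1 member became 2 with DESeq2, 3 with no filter and 0 with DESeq2 without control fish 2. Leaving out each fish, between 0 and 3 members were called. With no filter and without control fish 2 the 1 member called was forkhead box O1 Sa_24145.1.1, not forkhead box O3. At 2 vs. 1 BL s-1 the 168 called became 633 with no filter and between 120 and 299 leaving out each fish, and the 0 members between 0 and 1. At the adjusted threshold, the 0 called in each comparison became 47, 92 and 72 with no filter, 20 at 1 BL s-1 and 72 at 2 BL s-1 with no filter and without control fish 2, 1 and 2 in these with DESeq2 without control fish 2, and 1 at 2 BL s-1 and 2 between the speeds with DESeq2. Of the member pairs, between 0 and 1 passed leaving out each fish.

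The log2 fold change of forkhead box O1-A-like at 1 BL s-1 turned to 0.016 without control fish 2 and fish 3 at 1 BL s-1 to 0.32 with DESeq2 without control fish 2 and to 0.34 with no filter and without control fish 2, and leaving out each fish it ran between -1.11 and 0.30, the last without control fish 2. At 2 vs. 1 BL s-1 forkhead box O3 ran between -0.076 (without fish 1 at 2 BL s-1) and 0.56, with -0.039 without fish 3 at 1 BL s-1, and TRIM63-like between -0.019 (without fish 1 at 2 BL s-1) and 0.24. The cause was not tested. Of 128 settings of the members' fold changes, 102 kept their direction and side of the threshold, 9 lost the call, 10 gained it and 7 turned.

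Correlations of deviations between fish of the same number ran from -0.03 to 0.18, and 4 of the 9 were above 0.1. Between fish of different numbers they ran from -0.20 to 0.13. Whether fish of the same number shared a handling step is not given in the labels and was not tested further. With the replicate block 161, 183 and 178 gene models were called in the 3 comparisons. The few counts of forkhead box O1, forkhead box O6-like and F-box only 32 limit what these fish can show.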

Other observations

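Myoblast determination 1 (MyoD, Sa_16698.3.1), a factor of the myogenic programme that is no member and was named after its values were seen, was lowest in control fish 2, as were 14.2% of kept gene models. It had 8.80 normalized counts there and between 37.8 and 233 in the other 8 fish. Those fish showed no clear opposition to forkhead box O3. Control fish 1 had 226 of MyoD and 164 of forkhead box O3, and fish 3 at 1 BL s-1 had 38.8 and 59.4. Its log2 fold changes were 0.10 at 1 BL s-1 and 0.12 at 2 BL s-1, and neither passed, and they were -0.45 and -0.43 without control fish 2. A second gene model of DNA damage-inducible transcript 4 (Sa_9099.3.1) was also highest in control fish 2, at 304 normalized counts against 230 in the next fish, fish 3 at 1 BL s-1.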
